A study of Mus musculus with 8 samples.

Results

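Nr4a1, Nr4a2 and Nr4a3 make up the NR4A family of nuclear receptors, and the 3 genes were taken by name out of 22180 genes with a symbol in the array table. Each is read by 1 probe set, numbered 17315178 for Nr4a1, 17385374 for Nr4a2 and 17413945 for Nr4a3. In the RefSeq annotation of mouse assembly GRCm38.p6, Nr4a1 spans chr15:101253902-101274795, Nr4a2 spans chr2:57106830-57124003 and Nr4a3 spans chr4:48045078-48086447, and all 3 are protein coding. Total brain RNA came from mice immunized with myelin oligodendrocyte glycoprotein (MOG), which starts an attack of T cells on central nervous myelin and serves as a model of multiple sclerosis. The brains were taken on day 14, which the labels call the maximum of the disease, and all 8 arrays share this immunization. The 4 groups held 2 arrays each: wild-type mice with phosphate-buffered saline (PBS) or with NDP-MSH, and C57BL/6Je/e mice with either of these. NDP-MSH is a stabilized form of the peptide alpha-MSH and an agonist of melanocortin receptors, and it was injected into a vein at 5 µg per mouse on days 8, 10 and 12.

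C57BL/6Je/e mice, called e/e here, carry the recessive yellow allele of Mc1r, which leaves every cell without a working melanocortin 1 receptor, and were told from black wild-type mice by their yellow coat. The labels name no change in another melanocortin receptor. The strain of the wild-type mice, the schedule of the PBS injections and whether the arrays came from separate mice are not stated, so the spread behind every p-value is that of these arrays and may be technical.

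The NR4A proteins, also known as Nur77 (Nr4a1), Nurr1 (Nr4a2) and Nor1 (Nr4a3), are transcription factors whose ligand pockets are closed or filled by side chains, so their activity follows mainly from how much of them a cell makes. They are early response genes. A melanocortin receptor that binds its peptide raises cyclic AMP through the G protein subunit Gnas, protein kinase A then phosphorylates CREB, and CREB bound to cyclic AMP response elements (CREs) of the NR4A promoters starts their transcription within minutes to hours. In brain, Nr4a1 is prominent in striatum and cortex and follows dopamine and synaptic activity, Nr4a2 is needed for midbrain dopamine neurons and is made in claustrum, deep cortex and hippocampus, and Nr4a3 is induced by activity in hippocampus and cortex. In T cells and macrophages the family restrains inflammatory transcription. The series names NDP-MSH against PBS in each genotype as its comparisons, which for these genes asks whether an agonist of Mc1r leaves a mark on the family in mice with and without that receptor. The last injection was on day 12 and the brains were taken on day 14, so the first hours after an injection were not sampled.

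The promoter windows of the family are shown because they carry the CREs through which cyclic AMP reaches these genes. Each sequence runs 5′ to 3′ from 250 bases before to 50 bases after the gene start that the RefSeq promoter table of GRCm38.p6 lists. Capitals mark the CRE half-site TGACG, also read as CGTCA from the other strand, with overlapping matches counted as 1. The windows are chr15:101266596-101266895 on the plus strand for Nr4a1, chr2:57123954-57124253 on the minus strand for Nr4a2 and chr4:48045055-48045354 on the plus strand for Nr4a3. For Nr4a1 and Nr4a3 the listed start lies inside the gene span given above, downstream of its first base.
Nr4a1: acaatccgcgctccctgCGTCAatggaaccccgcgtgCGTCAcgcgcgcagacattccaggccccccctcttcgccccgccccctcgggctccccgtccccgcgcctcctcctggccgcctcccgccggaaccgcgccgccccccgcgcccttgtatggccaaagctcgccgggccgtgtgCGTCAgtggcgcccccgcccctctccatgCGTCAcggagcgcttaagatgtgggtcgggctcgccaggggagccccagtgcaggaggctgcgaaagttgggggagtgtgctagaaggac
Nr4a2: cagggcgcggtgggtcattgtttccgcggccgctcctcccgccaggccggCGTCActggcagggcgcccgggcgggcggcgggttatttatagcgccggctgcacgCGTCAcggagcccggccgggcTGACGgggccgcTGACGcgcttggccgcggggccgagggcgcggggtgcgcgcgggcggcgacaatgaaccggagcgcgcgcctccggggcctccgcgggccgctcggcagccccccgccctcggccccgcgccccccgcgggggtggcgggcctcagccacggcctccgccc
Nr4a3: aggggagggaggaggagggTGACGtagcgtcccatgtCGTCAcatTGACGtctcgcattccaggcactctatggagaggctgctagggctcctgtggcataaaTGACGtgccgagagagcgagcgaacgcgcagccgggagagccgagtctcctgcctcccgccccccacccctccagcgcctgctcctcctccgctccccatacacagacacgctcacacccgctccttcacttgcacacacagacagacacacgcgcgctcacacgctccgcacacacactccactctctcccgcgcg

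All 3 windows hold 4 half-sites, and all of these lie before the gene start. Among 32851 promoter windows of 300 bases in the same table, 20.8% hold at least 1 half-site and 37, or 0.113%, hold at least 4. The NR4A windows are rich in G and C (72.3% for Nr4a1, 81.7% for Nr4a2 and 64.7% for Nr4a3, against a median of 52.7%), and among the 9690 windows of 60% or above 0.299% hold at least 4 half-sites. In Nr4a1 the first bases of the half-sites lie at positions -233, -213, -69 and -40 from the gene start. In Nr4a2 they lie at -200, -144, -123 and -111, and in Nr4a3 at -231, -213, -205 and -147. The palindromic CRE, TGACGTCA, was not found in these windows and is held by 1.79% of all windows. The letters AAAGGTCA, the NBRE to which NR4A proteins bind as monomers, were likewise not found in them on either strand and are held by 1.51%. Of the 29 windows listed for 18 genes of the CREB early target list described below, 15 (51.7%) hold at least 1 half-site and 0 hold at least 3. A match describes letters in this window and is no measured binding site.

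**Figure D1:**
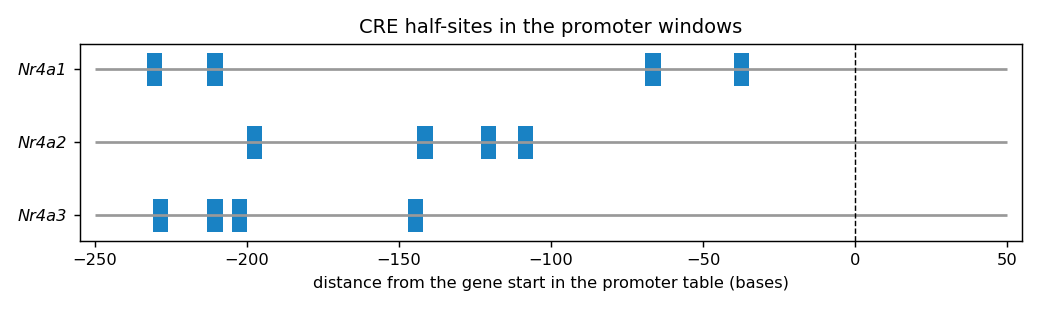
Positions of the CRE half-site TGACG or CGTCA (blue bars) in the 300-base promoter windows of Nr4a1, Nr4a2 and Nr4a3, drawn to scale against the distance in bases from the gene start in the promoter table (dashed line). Each window holds 4 half-sites, all before the gene start, and 2 of those in Nr4a1 (-69 and -40) lie nearer to it than any in Nr4a2 or Nr4a3.

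Values are the authors' processed signals, taken as log2 and centred gene by gene on the median of the 8 arrays, so a value says how far an array lies from the middle array and not how much RNA there is. The precision left in the numbers places the signal of all 3 NR4A probe sets at 8 or above before centring on every array, a class that 29.5% of all genes reach. All 8 astrocyte markers, 9 of 10 neuron markers and 8 of 9 myelin markers measured were in that class, while Mc1r to Mc5r were not. Gnas and the neuron marker Gad1 were outside the class as well, so a place outside it does not by itself mean little RNA. The NR4A genes varied more than most genes. The distance from the lowest to the highest array was 0.89 for Nr4a1, 0.67 for Nr4a2 and 0.69 for Nr4a3 against a median of 0.33 over all genes, and 95.5%, 90.3% and 91.1% of genes spanned less.

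Some arrays stood apart in ways that the groups do not name. The cerebellum marker list had medians of -1.75 and -1.67 in wild-type NDP-MSH 1 and 2, and of -0.05 to 0.28 in the other 6 arrays, and the pituitary list read 2.31 in wild-type NDP-MSH 1 against values between -0.07 and 0.05 in the other 7. The Y-linked transcript Uty read 3.26 and 3.31 with NDP-MSH in e/e mice, 2.32 in the second e/e PBS array, and -0.14 to 0.09 in the other 5 arrays. Xist, made from the inactive X chromosome, read -4.46 and -4.56 with NDP-MSH in e/e mice and -0.82 in the second e/e PBS array, which thus carried both signals, against -0.56 in the second wild-type NDP-MSH array and 0.56 to 0.67 in the other 4. In bulk brain, fewer cells of a type and less RNA per cell cannot be told apart.

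Nr4a1 did not separate the groups. With replicate 1 before replicate 2, its wild-type arrays read 0.22 and -0.34 under PBS and 0.08 and 0.04 under NDP-MSH, and its e/e arrays read 0.27 and -0.61 under PBS and -0.04 and -0.49 under NDP-MSH. The 2 arrays of a group were 0.56 apart for wild-type PBS, 0.89 for e/e PBS and 0.44 for e/e NDP-MSH, against 0.03 for wild-type NDP-MSH. Replicate 1 lay above replicate 2 in every group. In each comparison the ranges of the groups overlapped. By group mean the order was wild-type NDP-MSH (0.06), wild-type PBS (-0.06), e/e PBS (-0.17) and lastly e/e NDP-MSH (-0.26), and no neighbours in this order differed beyond their spread.

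Nr4a2 was lowest in wild-type mice given PBS. Its wild-type arrays read -0.14 and -0.40 under PBS and 0.26 and 0.22 under NDP-MSH, and its e/e arrays read 0.27 and 0.04 under PBS and -0.06 and -0.04 under NDP-MSH. Both wild-type NDP-MSH arrays were above both wild-type PBS arrays, and both e/e NDP-MSH arrays were below both e/e PBS arrays. By group mean the order was wild-type NDP-MSH (0.24), e/e PBS (0.15), e/e NDP-MSH (-0.05) and wild-type PBS (-0.27). The first 2 of these overlapped, and the other neighbours did not.

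Nr4a3 followed the same order at its low end and was highest in e/e mice given PBS. Its wild-type arrays read -0.27 and -0.22 under PBS and 0.23 and -0.10 under NDP-MSH, and its e/e arrays read 0.42 and 0.24 under PBS and -0.02 and 0.02 under NDP-MSH. As for Nr4a2, the NDP-MSH arrays were above the PBS arrays in wild-type mice and below them in e/e mice, without overlap. By group mean the order was e/e PBS (0.33), wild-type NDP-MSH (0.07), e/e NDP-MSH (0.00) and wild-type PBS (-0.25). Wild-type NDP-MSH and e/e NDP-MSH overlapped, and the highest wild-type NDP-MSH array lay just below the lower e/e PBS array.

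**Figure D2:**
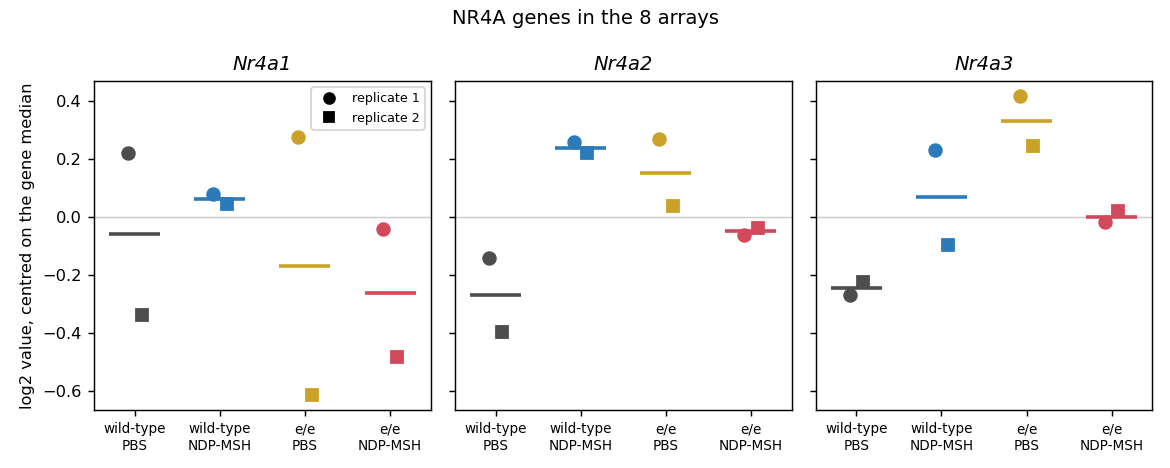
Log2 values of Nr4a1, Nr4a2 and Nr4a3, each centred on its median over the 8 arrays (vertical axis), in the 4 groups, with circles for replicate 1, squares for replicate 2 and bars for group means. Nr4a2 and Nr4a3 are lowest in the wild-type PBS arrays and lower with NDP-MSH than with PBS in e/e mice, while the Nr4a1 arrays of a group spread by up to 0.89.

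In wild-type mice, Nr4a2 and Nr4a3 were higher with NDP-MSH than with PBS, and none of the family passed the test over all genes. Differences are given as log2 differences ± SE from a limma fit over all 8 arrays, with p-values adjusted by the Benjamini-Hochberg method over all 22180 genes and a threshold of 0.05. Nr4a2 was higher by 0.51 ± 0.11 (1.42-fold, 95% interval 0.25 to 0.77, limma adjusted p = 0.193). Nr4a3 was higher by 0.31 ± 0.12 (1.24-fold, interval 0.04 to 0.59, limma adjusted p = 0.355). Nr4a1 differed by 0.12 ± 0.30 (limma adjusted p = 0.906), with a 95% interval from -0.58 to 0.83 that holds values on both sides larger than the Nr4a2 difference. These intervals are not adjusted for the number of genes. The fit called 39 of 22180 genes (0.176%), 38 of them lower and 1 higher, and 0 of the 3 NR4A genes. At an unadjusted p under 0.05 stood 2733 genes (12.3%), among them Nr4a2 and Nr4a3. The groups of 2 of the 3 did not overlap and were higher with NDP-MSH, as were those of 25.3% of all genes. Only 2.1% of all genes differed by more than Nr4a2 in either direction. With 2 arrays against 2, an exact permutation test (two-sided) cannot go below 0.333, the value it gave for Nr4a2 and Nr4a3.

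The wild-type difference of Nr4a1 hung on single arrays: it was 0.40 without wild-type PBS 1 and -0.16 without wild-type PBS 2. That of Nr4a3 was 0.15 without wild-type NDP-MSH 1, the array with high pituitary transcripts, and 0.48 without wild-type NDP-MSH 2. Nr4a2 stayed between 0.38 and 0.64 whichever array was left out. The count of 39 called genes fell to 0 without wild-type PBS 2, to 7 without wild-type NDP-MSH 1, to 11 without wild-type NDP-MSH 2, to 15 without wild-type PBS 1 and to 13 without either e/e NDP-MSH array. The low cerebellum list (10 of 10 measured markers lower, median -1.71, 8 past the threshold) was low in both wild-type NDP-MSH arrays. That list lay at 0.08 in e/e PBS 1, the array with the highest Nr4a2 (0.27), which is in neither group of the wild-type comparison. Hippocampal and cortical markers come from regions that make Nr4a2. Their list medians in these mice were -0.05 and -0.15 under PBS and 0.12 and 0.21 under NDP-MSH. Of the 14, 8 were higher and 3 lower without overlap, where 25.3% and 18.9% of all genes were. By limma 0 were called, and 8 had an unadjusted p under 0.05 (6 higher, 2 lower). The myelin list had medians of -0.03 and 0.03 under PBS against -0.30 and -0.36 under NDP-MSH. Of its 9 measured markers 9 were lower without overlap, where 18.9% of all genes were. By limma 0 were called, and 5 were lower at an unadjusted p under 0.05, where 5.6% of all genes were. The part of these regional differences in the Nr4a2 and Nr4a3 values was not tested.

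In e/e mice, which lack a working Mc1r, Nr4a2 and Nr4a3 lay lower with NDP-MSH without overlap, again without a call, and Nr4a1 overlapped. Nr4a3 was lower, at -0.33 ± 0.12 (95% interval -0.60 to -0.06, limma adjusted p = 1). Nr4a2 lay at -0.20 ± 0.11 (interval -0.46 to 0.06, limma adjusted p = 1) and Nr4a1 at -0.10 ± 0.30 (interval -0.80 to 0.61, limma adjusted p = 1). limma called 0 of 22180 genes (0%), and 789 (3.56%) had an unadjusted p under 0.05, among them Nr4a3. The groups of Nr4a2 and Nr4a3 did not overlap and were lower with NDP-MSH, as were those of 14.3% of all genes. The Y-linked and Xist values given above moved with the treatment in e/e mice, so a difference of sex and one of NDP-MSH cannot be told apart in this comparison. The infiltrating myeloid list had medians of -0.89 and 0.13 under PBS and -1.0 and -1.21 under NDP-MSH in these mice (9 of 10 lower, 0 called, 5 at an unadjusted p under 0.05). T cell markers were lower as well (8 of 8, median -0.25, 0 called, 0 at an unadjusted p under 0.05), and 10 of 10 claustrum and deep cortex markers were higher with NDP-MSH (median 0.17, 0 called, 2 at an unadjusted p under 0.05). The part of these lists was not tested. Without e/e PBS 2, the array with both signals, Nr4a3 lay at -0.42, Nr4a2 at -0.32 and Nr4a1 at -0.54. Without e/e PBS 1 they lay at -0.24, -0.09 and 0.35, so the direction of Nr4a1 turned. Leaving out e/e NDP-MSH 2 turned it as well (0.13). Where limma had called 0 genes, it called 51 with e/e PBS 1 left out and 4 with e/e PBS 2 left out, none of them an NR4A gene.

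Whether the NDP-MSH difference itself differed between the genotypes was tested in the same fit, as the wild-type minus the e/e difference. It was 0.71 ± 0.16 for Nr4a2 (95% interval 0.35 to 1.08, limma adjusted p = 0.416) and 0.64 ± 0.16 for Nr4a3 (interval 0.26 to 1.03, limma adjusted p = 0.457). For Nr4a1 it was 0.22 ± 0.43 (interval -0.78 to 1.21, limma adjusted p = 0.928). limma called 0 of 22180 genes (0%) here, and 1711 (7.71%) had an unadjusted p under 0.05, among them Nr4a2 and Nr4a3. Higher in both wild-type NDP-MSH arrays and lower in both e/e NDP-MSH arrays than in their PBS arrays were 2 of the 3 NR4A genes and 3.17% of all genes. Left out in turn, single arrays moved the value between 0.58 and 0.84 for Nr4a2 and between 0.48 and 0.81 for Nr4a3. For Nr4a1 it ran from -0.23 when e/e PBS 1 was left out to 0.66 when e/e PBS 2 was, and it was -0.06 without wild-type PBS 2 and 0.00 without e/e NDP-MSH 2. Other lists differed between the genotypes' responses too, with 0 genes called. Cerebellar markers were lower (10 of 10, median -1.56, 8 at an unadjusted p under 0.05), as were myelin markers (9 of 9, median -0.43, 7 at an unadjusted p under 0.05), while infiltrating myeloid (9 of 10, median 0.76) and T cell markers (8 of 8, median 0.42) were higher, with 2 and 1 at an unadjusted p under 0.05. Hippocampal and cortical markers were higher as well (11 of 14, median 0.16, 2 at an unadjusted p under 0.05). Xist differed by 3.80 ± 0.68 (limma adjusted p = 0.343), so sex and the difference of effects cannot be told apart. The part of the marker lists was not tested.

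Under PBS alone, Nr4a2 and Nr4a3 lay higher in e/e than in wild-type mice, without a call. Nr4a3 was higher in e/e than in wild-type mice by 0.58 ± 0.12 (1.49-fold, 95% interval 0.30 to 0.85, limma adjusted p = 0.871), and only 0.6% of all genes differed by more. Nr4a2 was higher by 0.42 ± 0.11 (1.34-fold, interval 0.16 to 0.68, limma adjusted p = 0.887). Nr4a1 lay at -0.11 ± 0.30 (interval -0.81 to 0.60, limma adjusted p = 0.999), and turned to 0.17 when wild-type PBS 1 was left out and to 0.34 when e/e PBS 2 was. limma called 0 of 22180 genes (0%), with 1088 (4.91%) at an unadjusted p under 0.05. The groups of Nr4a2 and Nr4a3 did not overlap and were higher in e/e mice, as were those of 17.4% of all genes. This comparison uses the same PBS arrays as the NDP-MSH comparisons, so low wild-type PBS values enter the wild-type difference, the difference between genotypes and the PBS comparison alike. Several marker lists were lower in e/e mice here, with 0 genes called by limma. These were microglia (7 of 7, median -0.35, 4 at an unadjusted p under 0.05, 6 without overlap), infiltrating myeloid cells (10 of 10, median -0.47, 3 at an unadjusted p under 0.05), T cells (7 of 8, median -0.14, 2 at an unadjusted p under 0.05) and striatum (7 of 7, median -0.38, 1 at an unadjusted p under 0.05). Of all genes, 16.7% were lower in e/e mice without overlap and 2.56% were lower at an unadjusted p under 0.05. The second e/e PBS array is also the one with Uty at 2.32, and Nr4a3 and Nr4a2 were higher by 0.66 and 0.54 without it. Some lists were mostly higher in e/e mice under PBS, among them hippocampus and cortex (12 of 14, median 0.04, 0 at an unadjusted p under 0.05). Myelin (8 of 9, median 0.08) and cerebellum (8 of 10, median 0.15) were too, with 1 and 0 at an unadjusted p under 0.05. The part of all these lists and of sex was not tested. With e/e PBS 1 left out, the fit called 4 genes.

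**Figure D3:**
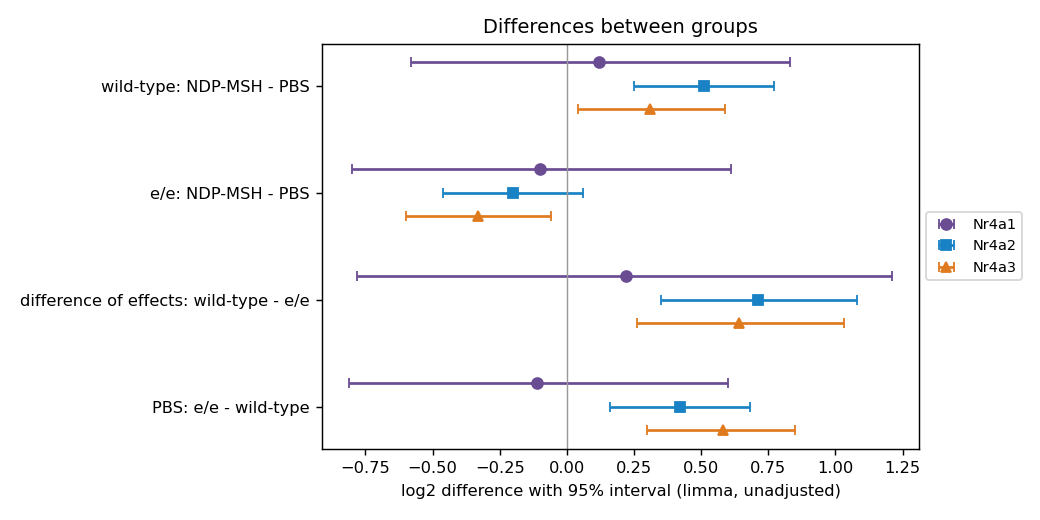
Log2 differences of Nr4a1, Nr4a2 and Nr4a3 (points) with unadjusted 95% intervals from the limma fit (bars) for the 4 comparisons named on the vertical axis. The Nr4a2 and Nr4a3 intervals lie above 0 in wild-type mice, for the difference of effects and for e/e against wild-type mice under PBS. In e/e mice the Nr4a3 interval lies below 0 and that of Nr4a2 spans 0. None of these differences passes the threshold after adjustment, and the Nr4a1 intervals all span 0.

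The members varied in unlike ways over the 8 arrays. Pearson's r, given as a description over 8 arrays that share 4 groups, was 0.73 between Nr4a2 and Nr4a3, 0.41 between Nr4a1 and Nr4a2 and 0.04 between Nr4a1 and Nr4a3. Among 17147 other genes with ordinary symbols, Nr4a3 ranked 668 in likeness to Nr4a2, and Nr4a3 ranked 9062 in likeness to Nr4a1. The genes most like Nr4a1 were Fam3b (r = 0.966), Papss2 (0.964), Calcoco1 (0.953), Ppbp (0.949) and Rarb (0.948), the retinoic acid receptor of the striatum. Those most like Nr4a2 were Erich1 (0.969), the cell cycle gene Ccnd1 (0.960), the chaperone gene Pdia3 (0.959), Ptgs2, which encodes the inducible cyclooxygenase (0.956), and Cdk14 (0.951). Those most like Nr4a3 were Gramd1c (0.964), ND1 (0.964), which is encoded in mitochondrial DNA, Rbm45 (0.954), Ahsa2 (0.952) and Rundc1 (0.942). Fam3b and ND1 spanned only 0.12 and 0.07 over the arrays, so their likeness is one of shape and not of size. Ptgs2 spanned 0.83. Its wild-type arrays read -0.09 and -0.61 under PBS and 0.22 and 0.14 under NDP-MSH, a difference of 0.53 ± 0.16 (limma adjusted p = 0.292).

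The receptors and second messengers upstream of CREB showed no call in any comparison. Of 10 measured genes of the melanocortin system, 5 were higher and 5 lower with NDP-MSH in wild-type mice (median 0.02, against 0.018 over all genes). By limma 0 passed, with 2 at an unadjusted p under 0.05, and in e/e mice 0 and 1. Mc1r, the receptor that the e/e allele inactivates, lay between -0.14 and 0.07 in all 8 arrays and differed by -0.02 ± 0.09 in wild-type and -0.01 ± 0.09 in e/e mice. Mc5r lay at 0.47 ± 0.18 (limma adjusted p = 0.367) and Mc4r, the receptor of hypothalamic feeding circuits, at 0.19 ± 0.08 (limma adjusted p = 0.37) in wild-type mice, while Mc2r, the ACTH receptor of the adrenal, lay at 0.05 ± 0.08 and Mc3r at -0.06 ± 0.09. Mrap2, which encodes an accessory protein of melanocortin receptors, lay in e/e mice at 0.38 ± 0.11 and Mgrn1 at 0.16 ± 0.08. Of 22 genes of cyclic AMP transduction, 12 were higher in wild-type and 15 in e/e mice (medians 0.01 and 0.06), and 0 passed by limma, with 3 and 1 at an unadjusted p under 0.05. The smallest p values there were those of Prkar2b, a regulatory subunit of protein kinase A, at 0.47 ± 0.15 in wild-type mice, and of the adenylate cyclase gene Adcy2, at 0.33 ± 0.11 in wild-type and 0.32 ± 0.11 in e/e mice. Adcy7 lay at 0.24 ± 0.16 in e/e mice.

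The list of CREB, its relatives and coactivators held 14 measured genes, of which 8 were higher and 6 lower in wild-type mice (median 0.04) and 5 higher and 9 lower in e/e mice (median -0.03), with 0 past limma's threshold and 1 in each genotype at an unadjusted p under 0.05. Creb1 encodes CREB. Its wild-type arrays read -0.17 and -0.10 under PBS and -0.02 and 0.08 under NDP-MSH, and its e/e arrays 0.12 and 0.16 under PBS and 0.01 and -0.01 under NDP-MSH. As for Nr4a2 and Nr4a3, its wild-type PBS arrays were the lowest, and the arrays did not overlap between treatments in either genotype. Its difference was 0.16 ± 0.07 in wild-type mice (limma adjusted p = 0.416) and -0.14 ± 0.07 in e/e mice (limma adjusted p = 1). Atf4, a CREB relative of the integrated stress response, lay at 0.22 ± 0.07 in wild-type and -0.05 ± 0.07 in e/e mice. The smallest p values of this list in e/e mice were those of Crtc3, a CREB coactivator, at -0.26 ± 0.11, and of the stress gene Atf3, at -0.27 ± 0.13.

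Other early genes driven by CREB were read from a list of 25 measured genes. With NDP-MSH 19 of them were higher and 6 lower in wild-type mice, with a median of 0.15, and 55% of all genes were higher with a median of 0.018. For e/e mice the counts were 10 higher and 15 lower, with a median of -0.06 against 0.008 over all genes, and by limma 0 passed in either comparison, with 4 (all higher) and 2 (both lower) at an unadjusted p under 0.05. Fosl2, which encodes a subunit of the AP-1 transcription factor, was of these the most like both Nr4a2 and Nr4a3. Its wild-type arrays read -0.29 and -0.43 under PBS and 0.16 and 0.03 under NDP-MSH, and its e/e arrays 0.37 and 0.15 under PBS and -0.14 and -0.03 under NDP-MSH. Its groups did not overlap in either genotype, and its r was 0.91 with Nr4a2, 0.93 with Nr4a3 and 0.18 with Nr4a1. It differed by 0.46 ± 0.10 in wild-type mice (limma adjusted p = 0.203), by -0.34 ± 0.10 in e/e mice (limma adjusted p = 1) and by 0.80 ± 0.15 between these (limma adjusted p = 0.343). The neurotrophin gene Bdnf lay at 0.27 ± 0.10 in wild-type and -0.10 ± 0.10 in e/e mice, and the AP-1 gene Junb at 0.15 ± 0.10 and -0.38 ± 0.10. Of the 25 genes, 7 (28%) had an r of at least 0.7 with Nr4a2, against 4.42% of all genes. These were Fosl2, Egr4, Arc, Egr2, Nptx2, Egr1 and Dusp6. With Nr4a1 these were 2 genes, Egr2 and Jund (8%, against 5.05% of all genes), and with Nr4a3 only Fosl2 (4%, against 1.9%).

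The EGR gene Egr1 and the synaptic gene Arc are also given, chosen after their values were seen. Egr1 read -0.25 and -0.95 under PBS and 0.16 and 0.03 under NDP-MSH in wild-type arrays, and 0.30 and -0.65 under PBS and 0.28 and -0.03 under NDP-MSH in e/e arrays. The lowest arrays were wild-type PBS 2 and e/e PBS 2, and the e/e groups overlapped. Egr1 differed by 0.70 ± 0.33 in wild-type (limma adjusted p = 0.432) and 0.30 ± 0.33 in e/e mice, and Arc, which acts at active synapses, by 0.38 ± 0.24 and -0.13 ± 0.24. Nr4a1 was also low in both of these PBS arrays, at -0.34 and -0.61. It was low in e/e NDP-MSH 2 too (-0.49), where Egr1 read -0.03.

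**Figure D4:**
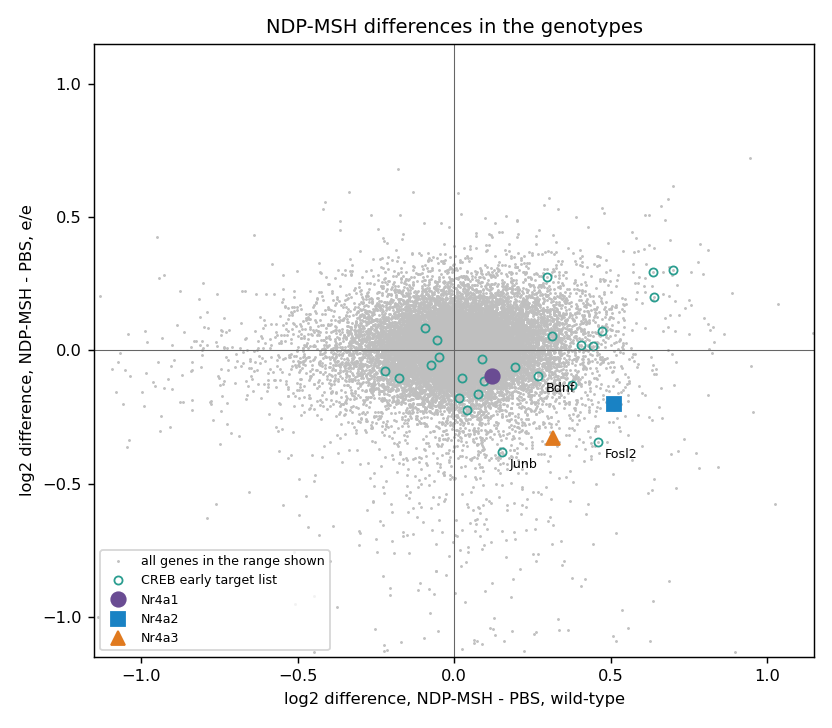
Log2 difference of NDP-MSH minus PBS in wild-type (horizontal axis) and e/e mice (vertical axis) for all genes within the range shown (grey), the CREB early target list (open circles) and the NR4A genes (filled symbols). Nr4a2 (0.51, -0.20), Nr4a3 (0.31, -0.33) and Fosl2 (0.46, -0.34) lie at the lower right, and Nr4a1 (0.12, -0.10) lies within the bulk of all genes.

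Partners and targets of the NR4A proteins were read from 2 further lists. Retinoid X receptors, coregulators and interacting factors (17 measured) had medians of 0.01 in wild-type and -0.04 in e/e mice, with 0 calls by limma and 0 at an unadjusted p under 0.05. Rxrg, the retinoid X receptor of striatum, which pairs with Nr4a1 and Nr4a2, lay at 0.63 ± 0.30 in wild-type (limma adjusted p = 0.444) and -0.26 ± 0.30 in e/e mice. The coactivator gene Ncoa2 lay at -0.16 ± 0.08 in wild-type mice, and in e/e mice Pias4 lay at -0.20 ± 0.12 and Rxrb at 0.17 ± 0.13. Of 14 midbrain dopamine neuron genes, many of them targets or partners of Nr4a2, 5 were higher and 9 lower in wild-type mice (median -0.09). By limma 1 passed, where 0.176% of all genes did, and 5 were lower at an unadjusted p under 0.05, where 5.6% of all genes were. Without overlap 6 were lower, as were 18.9% of all genes. Aldh1a1, a retinal dehydrogenase of dopamine neurons, was lower by 0.79 ± 0.08 in wild-type mice (limma adjusted p = 0.0263) and lay at 0.02 ± 0.08 in e/e mice. It read -0.54 and -0.71 in wild-type NDP-MSH 1 and 2, the arrays in which the cerebellum list was low. The part of tissue composition in the lower genes of this list was not tested. Besides Aldh1a1 and En2, the 5 lower genes were Ddc (-0.48 ± 0.15) and Slc18a2 (-0.80 ± 0.30), which make and store dopamine, and Ret (-0.62 ± 0.23), a receptor for GDNF-family neurotrophic factors. The 5 higher genes in wild-type mice were Th (0.01 ± 0.16), Foxa2 (0.08 ± 0.11), Pitx3 (0.18 ± 0.10), Drd2 (0.18 ± 0.21) and Vip (0.535 ± 0.237). Of these, 0 had an unadjusted p under 0.05. En2, which the cerebellum also makes, lay at -1.41 ± 0.24 in wild-type mice (limma adjusted p = 0.123), in the arrays in which the cerebellum list was low. Of the 14 genes, 11 were higher in e/e mice (median 0.06), with Pitx3 at 0.14 ± 0.10 and Drd2 at -0.24 ± 0.21.

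Striatal markers varied along with Nr4a1 from array to array. The median of 7 striatal markers read 0.55 and -0.07 under PBS and 0.20 and 0.45 under NDP-MSH in wild-type arrays, and 0.08 and -0.44 under PBS and -0.20 and -0.35 under NDP-MSH in e/e arrays. Within each of the 3 groups in which the Nr4a1 arrays lay apart, the array with less Nr4a1 also had less of this list. That order was not particular to striatum. It held in the same groups for the hippocampal and cortical, claustrum and deep cortex, neuron, neutrophil and CREB early target lists. Of the 7 markers, 4 had an r of at least 0.7 with Nr4a1 (Rarb, Drd1, Penk and Rgs9), as had 5 of 14 hippocampal and cortical markers and 5.05% of all genes. With Nr4a2 these were 0 of 7 and 4 of 14 (against 4.42%), and with Nr4a3 0 of both lists (against 1.9%). The Nr4a2-rich claustrum and deep cortex are read by a list of 10 markers, whose median lay between -0.25 in e/e PBS 2 and 0.12 in wild-type NDP-MSH 1, and 0 of them had such an r with Nr4a2. No T cell, infiltrating myeloid or microglial marker had an r of at least 0.7 with any of the 3 genes (8, 10 and 7 measured). Of all genes 5.05%, 4.42% and 1.9% had one with Nr4a1, Nr4a2 and Nr4a3. In lists this short 0 is near those shares, as it is for the claustrum and deep cortex list with Nr4a2. Negative r values were not counted. The median of the myeloid list ran from -1.21 in e/e NDP-MSH 2 to 0.48 in wild-type NDP-MSH 1. Of 8 neutrophil markers, Elane and S100a8 had such an r with Nr4a1 (25%), S100a8 with Nr4a2 (12.5%) and Camp with Nr4a3 (12.5%). Of these 8, 0 were in the class with a signal of 8 or above on every array. The part that tissue composition has in the Nr4a1 values was not tested.

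**Figure D5:**
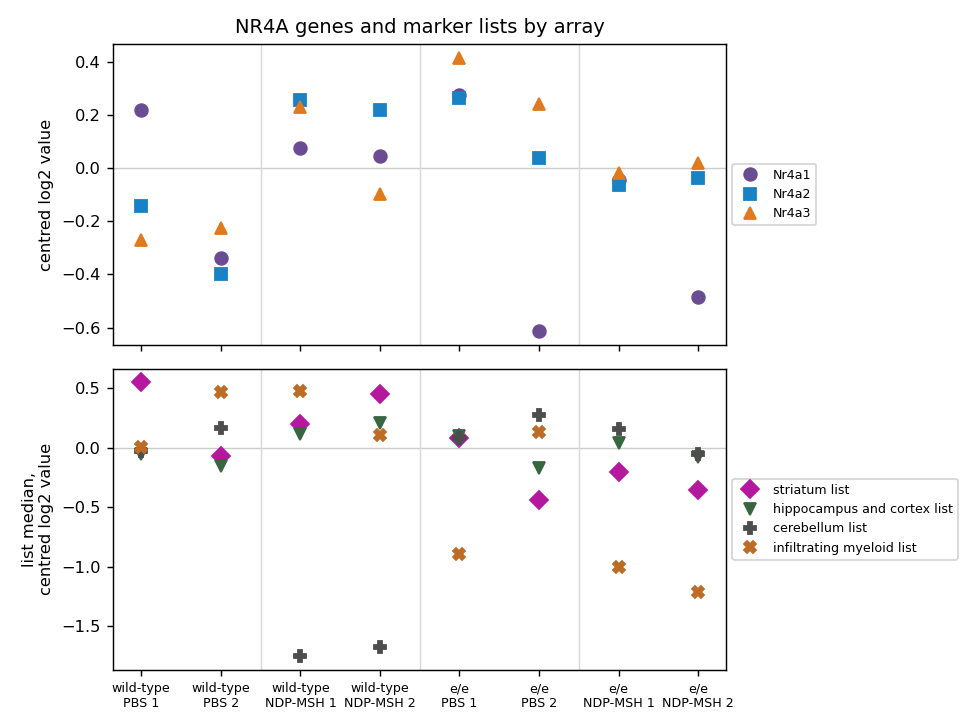
Log2 values of the NR4A genes (upper panel) and the medians of 4 marker lists (lower panel), each centred on the gene median, in the 8 arrays in group order. The cerebellum list is low (-1.75 and -1.67) for wild-type NDP-MSH, and the infiltrating myeloid list is low in 3 of the 4 e/e arrays. In 3 of the 4 groups, all but wild-type NDP-MSH, the array with less Nr4a1 has the lower striatum median. The hippocampus and cortex median has the same order in these groups.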

How the data were processed

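The deposited table holds 33793 probe sets on 8 arrays. Its values are the authors' processed signals, taken as log2; the base, the summarisation and the normalization have no statement in the labels or file headers. Per the labels' protocols, labelled cDNA was made with the WT Plus kit (Affymetrix). Each row is centred on its median, so the table carries differences and no levels. The single-precision step left in the values (tolerance 0.05 of a step) gave the signal class before centring. Precision is limited by the number of arrays, 2 per group.

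Probe sets with 1 symbol in the platform annotation (23521) were averaged per gene; 1814 with several symbols and 8458 unnamed ones were left out. limma 3.58.1 in R 4.3.3 fitted 1 coefficient per group over 8 arrays (4 residual and 3.45 prior degrees of freedom), with two-sided moderated tests. Tested on data simulated for wild-type NDP-MSH against PBS (22180 genes), the fit found 44% of the log2 changes of 0.5 and 82% of those of 1, and falsely called 6 of 21980 genes.

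The members and lists were chosen with earlier results of these data known. From each pathway list the text names the 2 genes of smallest p in each NDP-MSH comparison, any gene past the threshold, and Mc1r to Mc5r. For each NR4A gene it names the 5 genes of highest r. Named outside this rule were Egr1, Arc, Ddc, Slc18a2, Ret, Th, Foxa2, Vip, Esr2 and list genes with an r of at least 0.7. The alternatives were a replicate block, arrayWeights, robust eBayes, quantile normalization, arrays centred on their medians, a fit to the compared groups alone, probe sets kept apart, the brighter signal class alone (8 or above), and each array left out. Same-numbered arrays of different groups correlated between -0.251 and 0.443 in their deviations from group means. These mixed values do not settle whether the numbers pair the arrays. Slide and scan date were not used here. Promoter windows and coordinates come from RefSeq tables of GRCm38.p6, and figures were drawn with matplotlib 3.10.9.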

Additional observations from a re-analysis of the deposited data

How the results depend on the processing

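Over 189 refits of the 12 NR4A differences, none passed the threshold (smallest limma adjusted p = 0.113), and Nr4a2 and Nr4a3 kept their direction in all 63 refits each. Many of these refits could not turn a direction. Several settings leave the difference itself unchanged. Leaving out 1 array cannot turn a difference between groups that do not overlap, as those of Nr4a2 and Nr4a3 did not. Nr4a1 changed direction in 9 of 63. It lay at 0.06 after quantile normalization in e/e mice; the other turns came from leaving out 1 array, which put it between -0.16 and 0.40 in wild-type mice, -0.54 and 0.35 in e/e mice, -0.23 and 0.66 for the difference of effects, and -0.55 and 0.34 under PBS. The cause was not tested. A group left with 1 array is assumed to vary like the others.

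The count of 39 called genes in wild-type mice was 14 with the replicate block, 20 after quantile normalization, 5 with only the arrays compared, and between 0 and 49 with 1 array left out. The replicate block changed no NR4A call: Nr4a2 had a limma adjusted p = 0.193 in wild-type mice with it. For Nr4a1 in wild-type mice the block took the SE from 0.30 to 0.18 and left the difference at 0.12. In e/e mice between 0 and 51 genes were called with 1 array left out, under PBS between 0 and 4, and for the difference of effects between 0 and 7; that difference had 1 call after quantile normalization and 2 among the brighter probe sets, those of signal 8 or above. That filter asks for this signal on every array and so leaves out genes that dropped below it.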

Other observations

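Of 41 measured receptors outside the NR4A family, 26 were higher and 15 lower (median 0.06) in wild-type mice given NDP-MSH, and 0 passed limma's threshold, with 3 at an unadjusted p under 0.05 (Rora and Esrrg lower, Esr2 higher). Rora, the retinoid-related orphan receptor of cerebellar Purkinje cells, lay at -0.72 ± 0.19 (limma adjusted p = 0.253), with -0.28 and -0.84 in wild-type NDP-MSH 1 and 2. Esrrg, an estrogen-related receptor, lay at -0.53 ± 0.16 (limma adjusted p = 0.297), with -0.22 and -0.77 in the same arrays. The cerebellum list read -1.75 and -1.67 there, and its part in these values was not tested. Esr2, an estrogen receptor gene, lay at 0.22 ± 0.09 (limma adjusted p = 0.369). In e/e mice 24 of the 41 were higher and 17 lower (median 0.01), and 0 passed, with 1 at an unadjusted p under 0.05: Nr0b2, a receptor without a DNA-binding domain, at 0.19 ± 0.07. The clock gene Nr1d1 lay at 0.29 ± 0.13 in e/e mice. The medians of these 41 genes by array lay between -0.03 and 0.03.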
